A study of Mus musculus with 24 samples.

Results

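Genes of cholesterol synthesis and its control were examined in the livers of lipodystrophic *Lmna* ADKO mice and their controls. The 27 genes were chosen by name, as enzymes of the pathway and as partners or known targets of SREBP2, out of 23972 genes counted. The choice was made with earlier results of these data known. Shares called among the members are therefore described beside those of all genes and were not tested. They are 8 enzymes of the mevalonate steps, 12 enzymes from squalene to cholesterol, 4 genes of the SREBP control system, and 3 genes of sterol trafficking and uptake. All 27 had a row of counts, and 26 of them were well counted. The exception was *Npc1l1*, with at most 5 reads in any library.

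All mice were female, carried floxed *Lmna* alleles (exons 10 and 11), were housed at 22°C, and were fed a 60% high-fat diet (HFD) from 12 to 14 weeks of age. *Lmna* ADKO mice also carried *Adipoq*-Cre, which deletes lamin A/C in adipocytes and not in hepatocytes, and controls lacked Cre. After 4 weeks of HFD, mice received vehicle or an adeno-associated virus (AAV8) carrying FGF21, and livers were collected 8 weeks later. The groups held 7 vehicle-treated controls, 3 FGF21-treated controls, 6 vehicle-treated *Lmna* ADKO mice, and 8 FGF21-treated *Lmna* ADKO mice, at 1 library per mouse. The sample labels call the virus groups "Rescue", which was read as FGF21 from the methods. *Fgf21* itself was counted at 4.01 ± 3.18 reads per 1000000 of the TMM-scaled library size (CPM, mean ± SD, n = 7) in vehicle-treated controls, 4.78 ± 2.29 (n = 3) in FGF21-treated controls, 7.99 ± 2.48 (n = 6) in vehicle-treated *Lmna* ADKO mice, and 5.36 ± 2.41 (n = 8) in FGF21-treated *Lmna* ADKO mice. Liver *Fgf21* counts therefore did not mark the virus groups. Liver *Lmna* was not lower in *Lmna* ADKO mice, at 26.7 ± 2.57 CPM against 18.6 ± 2.47 in controls with vehicle.

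Each library held 19863304 to 21510054 counted reads. Libraries are numbered within each group, from the smallest animal number up, and animal numbers have 3 or 4 digits. The 3-digit numbers made up 6 of 7 vehicle-treated controls, 0 of 3 FGF21-treated controls, 1 of 6 vehicle-treated *Lmna* ADKO mice, and 4 of 8 FGF21-treated *Lmna* ADKO mice, so the number series is unevenly spread over the groups. In 3 libraries, gene levels relative to the median of their genotype fell with gene length. For each gene, that median was subtracted from the log2 CPM of the library. The slope of this difference on log2 exonic length was taken over 9690 genes. It was -0.154 and -0.29 in library 3 of the vehicle-treated and of the FGF21-treated controls. It was -0.331 in library 7 of the FGF21-treated *Lmna* ADKO mice, against -0.109 to 0.128 in the other 21 libraries. Counts on these members therefore are also given without those libraries where they bear on a call.

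Liver makes much of the body's cholesterol, starting from acetyl-CoA. The mevalonate steps build isoprenoid units and join them into farnesyl diphosphate, and squalene synthase then commits that product to sterols, which are cyclized to lanosterol and trimmed to cholesterol. The transcription factor SREBP2 (gene *Srebf2*) is held in the endoplasmic reticulum with its escort SCAP by INSIG proteins when sterols are plentiful. When sterols fall, SCAP carries SREBP2 to the Golgi, where proteases release the part that turns on nearly every gene of this pathway. *Insig1* is itself a target of SREBP, which closes a feedback loop.

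SREBP2 binds sterol regulatory elements near gene starts, often beside sites for NF-Y, which reads CCAAT, and for Sp1, which reads GGGCGG. Promoter windows of RefSeq on GRCm38.p6 (250 bases before to 50 bases after each start) matched 23 of the 27 genes by symbol. *Fdps*, *Fdft1*, *Sqle*, and *Stard4* had none. Letters were searched on both strands, and a gene counts once if any of its windows holds a match. CCAAT occurred in 21 of 23 members (91.3%), against 41.1% of all 27025 genes with a window and 43% of the 9586 of those whose log2 CPM averaged 0 or more. The 2 without CCAAT were *Acat2* and *Scap*. GGGCGG occurred in 20 members (87%), against 38.2% of all genes and 67.3% of the expressed ones. The element TCACNCCAC occurred only in *Hmgcs1* among the members, and in 1.44% of all genes. Its shorter core CACNCCAC, which lies within it, occurred in *Acat2*, *Hmgcs1*, and *Insig1*, and in 7.12% of all genes. The E-box CACGTG occurred in 5 of 23 members (21.7%), against 8.09% of all genes and 11.9% of the expressed ones. These 5 were *Hsd17b7*, *Sc5d*, *Dhcr7*, *Insig1*, and *Scap*. Matches describe letters only, and binding was not measured.

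The following stretches lie before a RefSeq start and overlap no annotated exon. That of *Lbr* lies within the annotated span of its gene, and the others lie upstream of theirs. The stretches are shown because these genes were called higher in both genotype comparisons below under most or all analyses (*Hmgcs1*, *Acat2*, *Mvd*, *Lss*, *Insig1*, *Insig2*) or moved least (*Ggps1*, *Lbr*). Each is written 5′ to 3′ on the gene's strand, and capitals mark CCAAT or CACNCCAC on either strand.
Hmgcs1, chr13:119690151-119690350, plus strand: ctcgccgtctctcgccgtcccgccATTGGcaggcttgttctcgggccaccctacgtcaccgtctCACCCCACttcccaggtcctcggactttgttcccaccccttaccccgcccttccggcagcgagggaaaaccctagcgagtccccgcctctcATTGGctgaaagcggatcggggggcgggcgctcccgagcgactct
Acat2, chr17:12960748-12960947, minus strand: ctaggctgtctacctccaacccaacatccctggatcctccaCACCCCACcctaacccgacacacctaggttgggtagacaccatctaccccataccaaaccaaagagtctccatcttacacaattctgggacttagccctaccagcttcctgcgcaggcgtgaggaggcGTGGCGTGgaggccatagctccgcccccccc
Mvd, chr8:122443423-122443622, minus strand: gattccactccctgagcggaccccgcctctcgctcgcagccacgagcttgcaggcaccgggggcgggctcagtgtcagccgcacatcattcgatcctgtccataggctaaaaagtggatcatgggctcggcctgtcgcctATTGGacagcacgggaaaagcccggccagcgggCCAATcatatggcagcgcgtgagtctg
Lss, chr10:76531388-76531587, plus strand: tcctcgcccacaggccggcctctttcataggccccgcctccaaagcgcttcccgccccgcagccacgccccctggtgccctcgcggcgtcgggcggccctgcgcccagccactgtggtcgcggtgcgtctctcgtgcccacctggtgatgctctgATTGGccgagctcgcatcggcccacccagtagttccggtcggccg
Insig1, chr5:28071163-28071362, plus strand: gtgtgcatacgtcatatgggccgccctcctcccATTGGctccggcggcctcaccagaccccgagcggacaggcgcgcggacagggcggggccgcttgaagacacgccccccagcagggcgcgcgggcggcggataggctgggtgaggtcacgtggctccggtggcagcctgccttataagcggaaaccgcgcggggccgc
Insig2, chr1:121332590-121332789, minus strand: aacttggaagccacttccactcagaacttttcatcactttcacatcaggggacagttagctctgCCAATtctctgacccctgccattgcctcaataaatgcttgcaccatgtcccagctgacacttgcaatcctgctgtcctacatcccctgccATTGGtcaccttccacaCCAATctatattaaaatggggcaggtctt
Ggps1, chr13:14063490-14063603, minus strand: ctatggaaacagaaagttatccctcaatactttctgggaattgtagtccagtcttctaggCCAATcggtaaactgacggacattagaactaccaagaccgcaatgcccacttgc
Lbr, chr1:181842402-181842601, minus strand: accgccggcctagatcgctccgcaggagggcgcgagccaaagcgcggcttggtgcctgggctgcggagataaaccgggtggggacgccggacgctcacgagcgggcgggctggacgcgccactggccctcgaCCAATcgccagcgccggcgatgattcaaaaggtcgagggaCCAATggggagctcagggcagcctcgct
*Hmgcs1* has the core element between a pair of CCAAT letters, all within the 200 bases shown, and *Acat2* has the core at 2 places and no CCAAT. The core of *Insig1* lies nearer its start, outside the stretch shown. *Ggps1* and *Lbr* also hold CCAAT, so these letters do not divide the genes that moved from those that did not.

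The first question is how adipocyte loss of *Lmna* altered liver sterol genes without FGF21. With vehicle, 7 of the 20 sterol enzymes were called higher and 1 lower in *Lmna* ADKO livers, and 17 of 20 had a log2 fold change above 0. A gene was called when its fold change exceeded 1.5 and its p, from edgeR's quasi-likelihood test and adjusted by Benjamini-Hochberg across the whole table, was below 0.05. By this rule, 10 of the 27 members were higher, against 5.12% of all genes called higher, and 1 was lower, against 3.36%. Without the barely counted *Npc1l1*, 9 of 26 were higher. Because the members were chosen with earlier results known, these shares only describe the list. The median log2 fold change of the 20 enzymes was 0.81, a fold of 1.76, beside -0.01 over the 12661 genes whose log2 CPM from the fit averaged 0 or more. No library set this direction, since the enzyme median ran from 0.68 to 1.0 when each was left out in turn. The number called higher rose to 16 without library 5 of the controls, which was the highest control for 15 of the 20 enzymes. Without the 3 libraries whose relative levels fell with gene length, 8 were higher and 1 was lower, *Scap* in place of *Ebp*. In bulk liver, fewer cells of a type and less RNA per cell cannot be told apart.

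**Figure D1:**
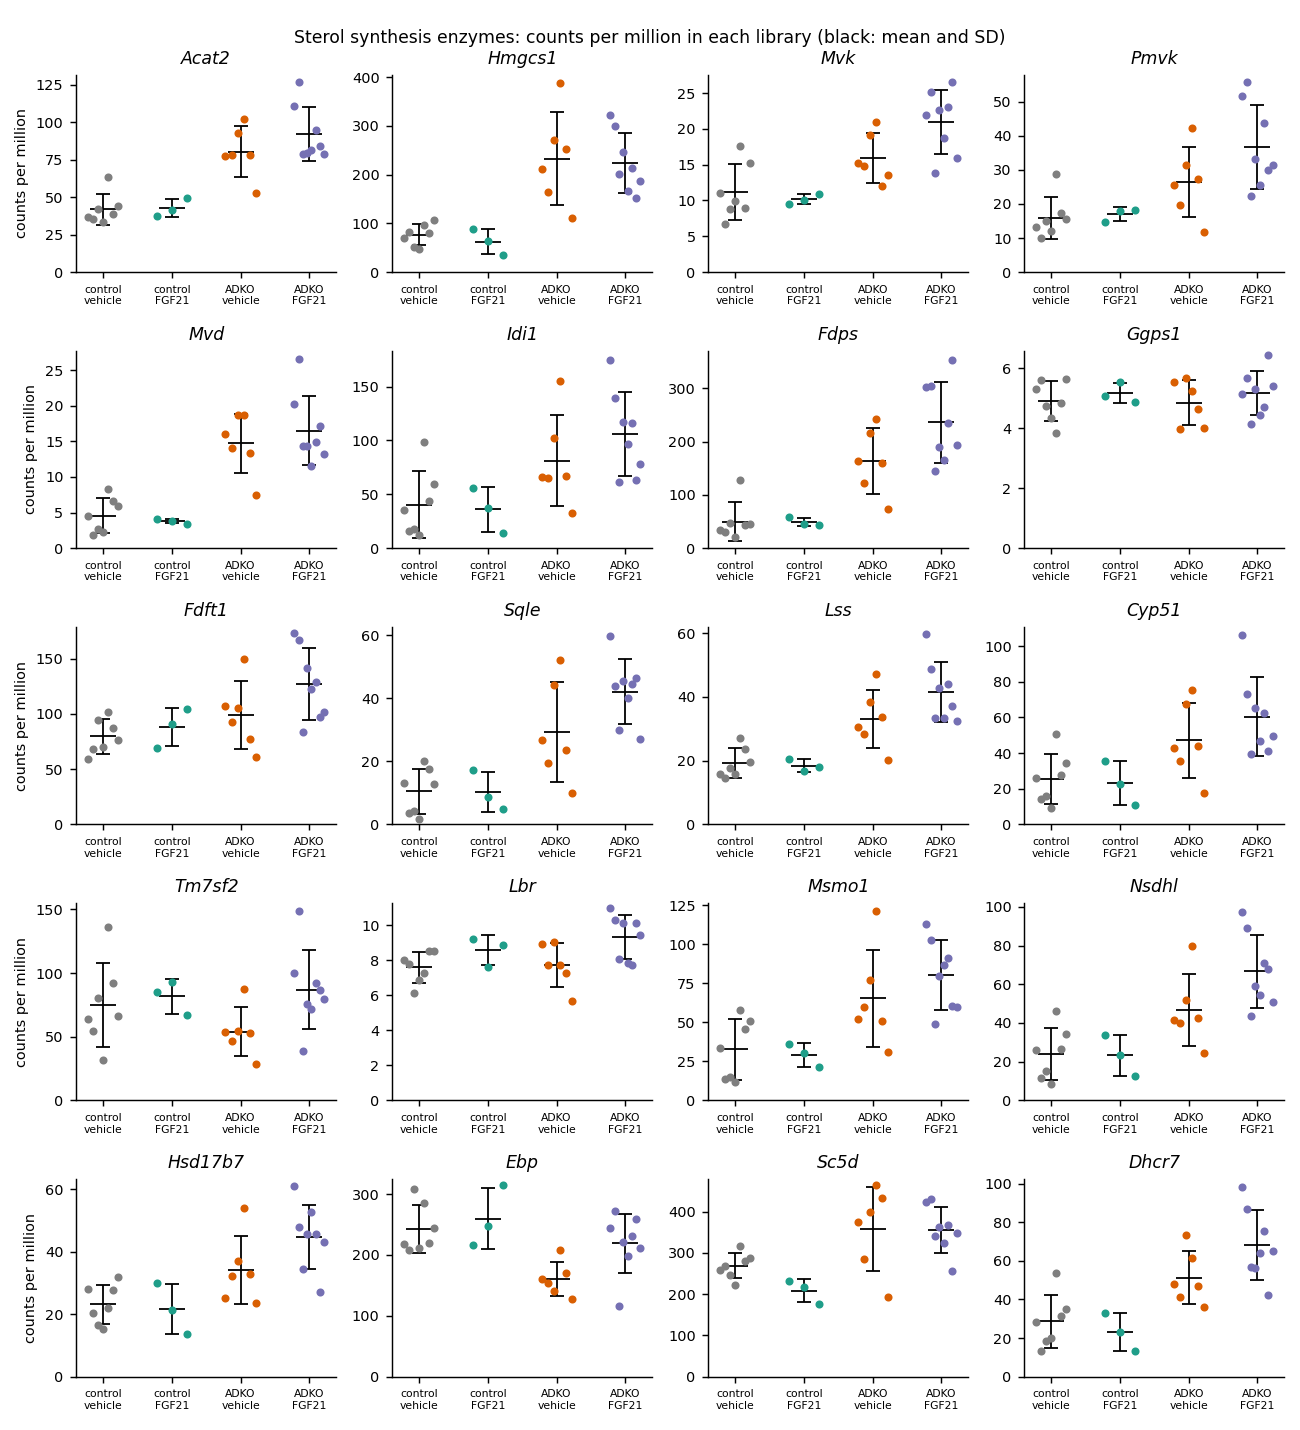
CPM (linear axis from 0) of the 20 sterol synthesis enzymes in each of the 24 libraries, with 1 point per mouse and black bars for the group mean and SD (n = 7, 3, 6, and 8 from left to right). All 6 vehicle-treated *Lmna* ADKO libraries exceed every vehicle-treated control for *Hmgcs1*, whereas *Ggps1* and *Lbr* lie at like levels in the 4 groups and *Ebp* is lower in vehicle-treated *Lmna* ADKO mice.

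Of the 8 enzymes of the mevalonate steps, 4 were higher in *Lmna* ADKO mice with vehicle, and 7 had a log2 fold change above 0. *Hmgcs1*, which makes HMG-CoA, was at 47.8 CPM in the lowest control, 80.9 in the median, and 106 in the highest. In vehicle-treated *Lmna* ADKO mice it was at 212, 165, 272, 388, 252, and 110 CPM in libraries 1 to 6. The lowest of these 6 exceeded the highest of the 7 controls. *Hmgcs1* rose by 1.60 on the log2 scale (SE 0.261, adjusted p = 0.000161), a fold of 3.04.

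*Acat2*, the cytosolic thiolase that joins acetyl units ahead of *Hmgcs1*, ran from 33.1 to 63.7 CPM in controls (median 38.6) and from 52.5 to 102 in *Lmna* ADKO mice (median 78.2). In 5 of 6 *Lmna* ADKO libraries it was above every control, and it rose by 0.94 (SE 0.151, adjusted p = 7.36e-05). Mouse *Acat3* is a close relative of *Acat2*, and how reads that fit both were divided is not given in the sources used here. *Mvd*, which makes isopentenyl diphosphate, was scarce in controls, at 1.87 to 8.31 CPM (median 4.58), and ran from 7.52 to 18.7 (median 15.1) in *Lmna* ADKO mice. Its log2 fold change was 1.68 (SE 0.29, adjusted p = 0.000316), with 5 of 6 libraries above every control.

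*Fdps*, which makes farnesyl diphosphate, the branch point for sterols and other isoprenoids, changed the most among the enzymes with vehicle. It ran from 20.6 to 129 CPM in controls, with a median of 42.7, and from 72.9 to 243 in *Lmna* ADKO mice, with a median of 162. The control at 129 CPM was library 5, and the next control was at 47.6. The log2 fold change was 1.71 (SE 0.348, adjusted p = 0.0017). An annotated neighbour on the same strand shares 26.7% of the exonic length of *Fdps* and has no row among the counts.

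The other mevalonate enzymes did not pass. *Idi1*, the isomerase, ranged over 8.28-fold among controls alone (11.8 to 98.7 CPM) and had a log2 fold change of 1.01 (SE 0.459, adjusted p = 0.161). *Pmvk* and *Mvk*, the kinases of phosphomevalonate and of mevalonate, had log2 fold changes of 0.72 (SE 0.268, adjusted p = 0.074) and 0.51 (SE 0.186, adjusted p = 0.0655). *Ggps1* stood apart. It draws farnesyl diphosphate toward geranylgeranylation rather than sterols, lay between 3.83 and 6.46 CPM in all 24 libraries, and had a log2 fold change of -0.02 (SE 0.126, adjusted p = 0.985).

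Of the 12 enzymes from squalene onward, 3 were higher, 1 was lower, and 10 had a log2 fold change above 0. *Sqle*, the squalene epoxidase, was the most variable enzyme among controls. Its 7 controls lay at 13.0, 3.47, 4.37, 1.75, 20.2, 17.4, and 12.8 CPM, an 11-fold range, and the 6 *Lmna* ADKO libraries at 26.9, 19.6, 44.2, 52.3, 23.5, and 9.96. In 4 of these 6 it was above every control. It rose by 1.49 (SE 0.465, adjusted p = 0.0332). That call held in 14 of 21 alternative analyses.

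*Lss*, which cyclizes the epoxide to lanosterol, was steadier. It ran from 14.5 to 27.1 CPM in controls (median 17.6) and from 20.1 to 47.2 in *Lmna* ADKO mice (median 32.1), and it rose by 0.78 (SE 0.173, adjusted p = 0.00235). *Dhcr7*, which catalyses a last reduction to cholesterol, ran from 13.2 to 53.8 CPM (median 28.4) and from 36.3 to 73.4 (median 47.5). It rose by 0.84 (SE 0.273, adjusted p = 0.0396), and only 2 of 6 *Lmna* ADKO libraries were above every control. The *Dhcr7* call held in 9 of 21 alternatives, with adjusted p up to 0.11.

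*Ebp*, the sterol isomerase, went the other way. It had the highest level per exonic length of all 27 genes, at 105 ± 17.1 CPM per kilobase in controls (SD, n = 7) against 55.2 ± 6.3 for *Sc5d*, the next. Its counts were 218, 208, 308, 211, 285, 220, and 245 CPM in controls and 160, 154, 140, 208, 171, and 128 in *Lmna* ADKO mice. All but library 4 of the *Lmna* ADKO mice were below every control. *Ebp* fell by 0.60 on the log2 scale (SE 0.154, adjusted p = 0.00765), just past the 1.5-fold threshold. Leaving out libraries moved it between -0.69 and -0.53, so that it dropped under that threshold in some of these alternatives.

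The remaining later enzymes were not called with vehicle. *Cyp51*, *Msmo1*, and *Nsdhl*, which remove methyl groups from lanosterol, had log2 fold changes of 0.89 (SE 0.378), 1.0 (SE 0.365), and 0.95 (SE 0.342), with adjusted p of 0.129, 0.072, and 0.0665. Among controls these 3 genes ranged over 5.46-fold, 4.85-fold, and 5.34-fold. *Hsd17b7*, the ketosteroid reductase of the same step, and *Sc5d*, the desaturase, had log2 fold changes of 0.56 (SE 0.214, adjusted p = 0.085) and 0.42 (SE 0.152, adjusted p = 0.0636). *Fdft1*, the squalene synthase, was at 0.32 (SE 0.184, adjusted p = 0.278), and 18.3% of its exonic length is shared with *Ctsb* on the opposite strand.

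The enzymes that reduce the same double bond, *Tm7sf2* and *Lbr*, did not follow the pathway. *Tm7sf2* had a log2 fold change of -0.48 (SE 0.292, adjusted p = 0.302), with controls from 32.1 to 136 CPM and *Lmna* ADKO mice from 28.2 to 87.7. It shares 12.1% of its exonic length with *Vps51* on the same strand. *Lbr*, which is also a receptor of the nuclear lamina, was at 7.58 ± 0.882 CPM in controls (SD, n = 7) and 7.73 ± 1.23 in *Lmna* ADKO mice (n = 6), a log2 fold change of 0.03 (SE 0.118, adjusted p = 0.939).

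**Figure D2:**
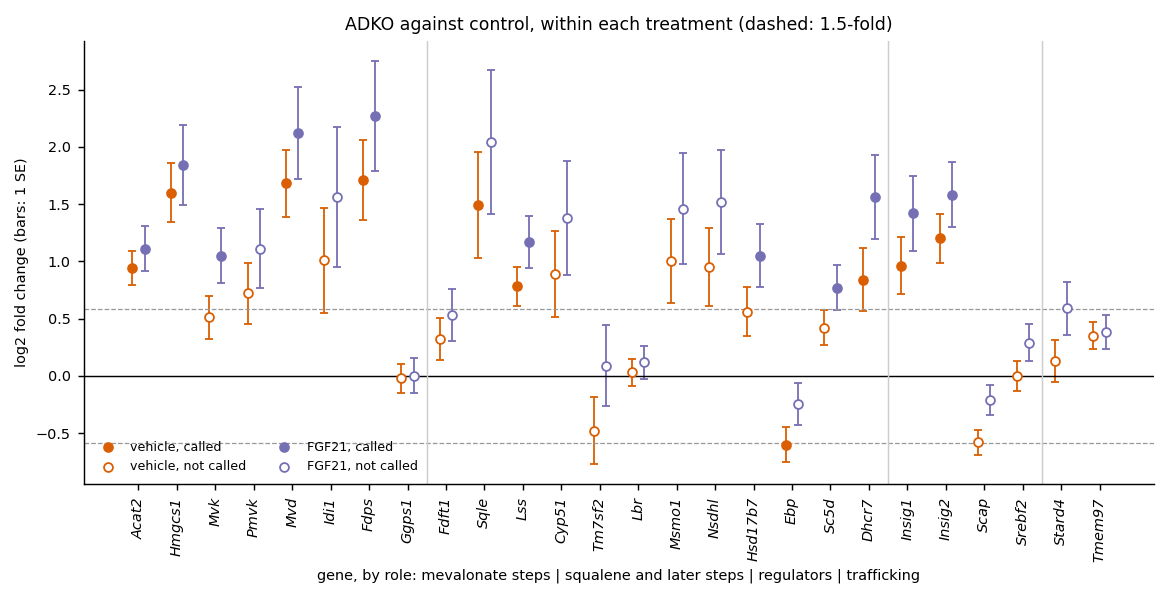
Log2 fold change of *Lmna* ADKO against control for 26 members, with vehicle (orange) and with FGF21 (purple). Bars are 1 SE, filled points were called, and dashed lines mark a 1.5-fold change. *Mvd* and *Fdps* reach 1.68 and 1.71 with vehicle and 2.12 and 2.27 with FGF21, whereas *Ggps1* and *Lbr* lie near 0 in both.

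Within the control system, both Insig genes were higher, *Scap* was lower by slightly less than the fold threshold, and *Srebf2* had the same mean. *Insig2*, the retention factor whose liver form is repressed by insulin, was at 120, 170, 89.0, 114, 82.3, 57.3, and 135 CPM in controls. It was at 292, 187, 257, 189, 398, and 191 CPM in *Lmna* ADKO mice, all above the highest control. It rose by 1.20 (SE 0.212, adjusted p = 0.000288). *Insig1*, a direct SREBP target, ran from 64.5 to 144 CPM in controls (median 101) and from 92 to 281 in *Lmna* ADKO mice (median 239). It rose by 0.96 (SE 0.248, adjusted p = 0.00936), with 4 of 6 libraries above every control.

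*Scap*, the escort of SREBP, varied least within the vehicle groups among the well counted members. The controls were at 122, 142, 113, 127, 120, 136, and 124 CPM, and the *Lmna* ADKO mice at 75.5, 81.0, 89.2, 92.9, 82.5, and 83.9. The groups did not overlap. The log2 fold change was -0.58 (SE 0.108, adjusted p = 0.000345), a ratio of 0.667, which passes the adjusted p and misses the fold threshold. *Scap* passed both by DESeq2, at -0.59. A transcript of uncertain status on the opposite strand shares 13.2% of its exonic length. *Srebf2*, the factor itself, was at 43.5 ± 9.13 CPM in controls and 43.5 ± 4.62 in *Lmna* ADKO mice, a log2 fold change of 0.00 (SE 0.129, adjusted p = 1.0). Its transcript level does not report the processed protein, which was not measured.

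Of the 26 members whose log2 CPM averaged 0 or more, 3 showed no overlap with vehicle. *Hmgcs1* and *Insig2* were higher in every *Lmna* ADKO library, against 7.24% of the 12492 genes at that level, and *Scap* was lower in every one, against 6.69%.

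**Figure D3:**
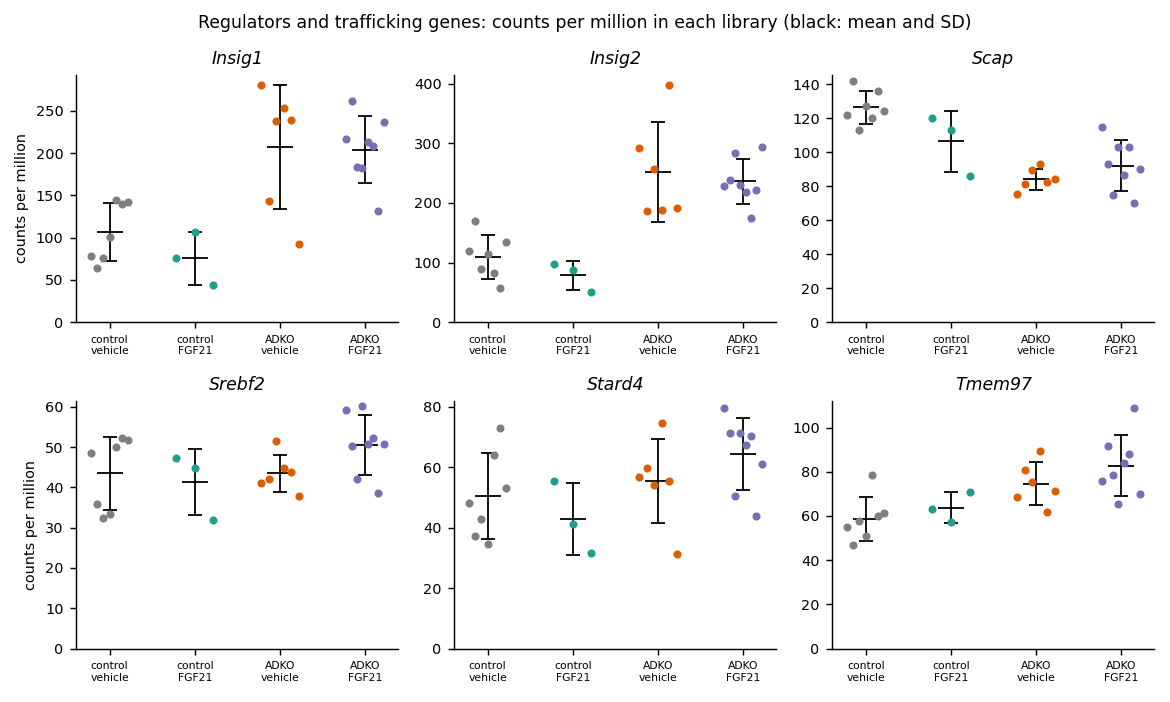
CPM (linear axis from 0) of the SREBP regulators *Insig1*, *Insig2*, *Scap*, and *Srebf2* and of *Stard4* and *Tmem97* in each library, with 1 point per mouse and black bars for the group mean and SD (n = 7, 3, 6, and 8 from left to right). *Insig2* in the 6 vehicle-treated *Lmna* ADKO mice (187 to 398 CPM) lies above and *Scap* (75.5 to 92.9 CPM) below all 7 vehicle-treated controls.

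The genes of trafficking and uptake gave smaller or unreadable differences. *Tmem97*, a sterol-regulated membrane protein that binds NPC1, was at 58.7 ± 10.1 CPM in controls and 74.6 ± 9.65 in *Lmna* ADKO mice. Its log2 fold change of 0.35 (SE 0.119, adjusted p = 0.048) stayed under the fold threshold. *Stard4*, which carries cholesterol between membranes, had a log2 fold change of 0.13 (SE 0.185, adjusted p = 0.703). *Npc1l1*, the intestinal and biliary sterol importer, had 0 reads in all 7 controls and 0, 1, 1, 2, 0, and 5 in the 6 *Lmna* ADKO libraries. edgeR called it higher (adjusted p = 0.0216). The call was lost without library 6, and DESeq2 gave no adjusted p. No fold is given, since 3 reads were taken as the lowest readable count and only 1 library exceeded it.

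Within the vehicle groups, many of the enzymes were high or low in the same libraries. *Ggps1*, *Lbr*, *Sc5d*, and *Ebp* varied little, over 1.46-fold, 1.38-fold, 1.43-fold, and 1.48-fold among vehicle-treated controls. Library 3 of the FGF21-treated controls was mixed, the lowest of its group for 13 enzymes and the highest for 5. The mean deviation of the 20 enzymes from the vehicle-treated control mean was 0.74 (log2) in control library 5 and -0.68 in control library 4, the lowest control for 11 enzymes. Among vehicle-treated *Lmna* ADKO mice, library 6 had the lowest value for 18 of 20 enzymes and a mean deviation of 0.00, the level of the control mean. Library 4 had the highest value for 17 enzymes and a mean deviation of 1.38. Library 6 thus had control-like levels of most sterol enzymes. Its *Insig1* (92 CPM) was also the lowest of its group and under the control mean of 107, whereas its *Insig2* (191 CPM) and *Scap* (83.9 CPM) lay with the other *Lmna* ADKO mice.

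**Figure D4:**
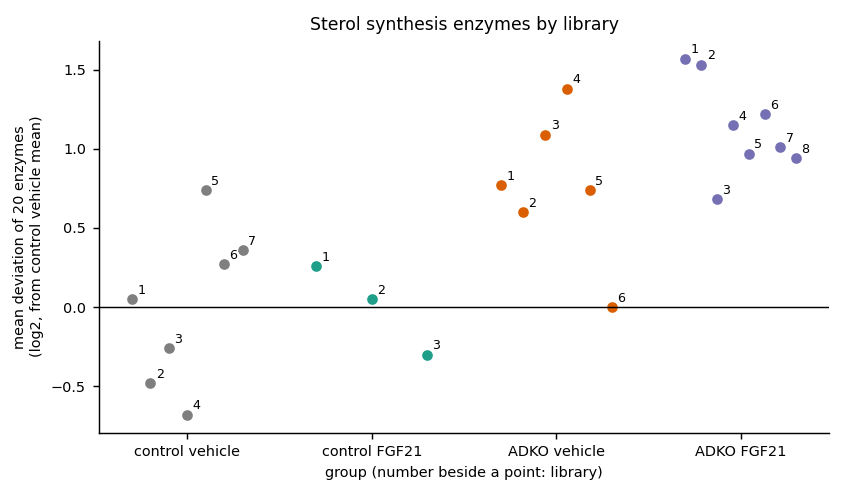
Mean deviation of the 20 sterol synthesis enzymes in each library from the mean of the vehicle-treated controls (log2 scale), with 1 numbered point per library. The 8 FGF21-treated *Lmna* ADKO libraries lie from 0.68 to 1.57 and the 3 FGF21-treated controls from -0.3 to 0.26, while library 6 of the vehicle-treated *Lmna* ADKO mice lies at 0.00.

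The same genotype comparison was then made in mice given FGF21, with 8 *Lmna* ADKO mice and 3 controls. Here 9 of the 20 sterol enzymes were called higher in *Lmna* ADKO mice, and 18 of 20 had a log2 fold change above 0. By the same rule 11 of 27 members were higher, against 1.61% of all genes, and 0 were lower, against 1.26%. DESeq2 also called 0 lower, and 17 higher. At an unadjusted p under 0.05 were 20 members, against 16.9% of all genes. The enzyme median was 1.14 on the log2 scale, a fold of 2.21, beside 0.01 over all genes at that level. Of the 26 well counted members, 16 were higher in every *Lmna* ADKO library than in every control, against 5.03% of genes, and 0 were lower in every library, against 3.53%.

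Of the mevalonate steps, 5 enzymes passed. *Fdps* was at 58.1, 45.2, and 43.4 CPM in the 3 controls and from 145 to 354 (median 214) in *Lmna* ADKO mice, a log2 fold change of 2.27 (SE 0.48, adjusted p = 0.00905). *Mvd* was at 4.04, 3.85, and 3.44 CPM in controls and from 11.5 to 26.5 (median 14.6), a log2 fold change of 2.12 (SE 0.398, adjusted p = 0.00338). In both genes, every *Lmna* ADKO library was more than 2-fold above the highest control. *Hmgcs1* was at 88.0, 64.4, and 35.4 CPM in controls and from 152 to 322 (median 207), a log2 fold change of 1.84 (SE 0.352, adjusted p = 0.0037). *Acat2* and *Mvk* rose by 1.11 (SE 0.196, adjusted p = 0.00141) and 1.05 (SE 0.24, adjusted p = 0.0122). *Mvk* also lay above all controls in all 8 libraries, with controls between 9.55 and 10.9 CPM and *Lmna* ADKO mice between 13.9 and 26.6.

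*Pmvk* and *Idi1* showed no overlap either, yet did not pass, with log2 fold changes of 1.11 (SE 0.347, adjusted p = 0.0754) and 1.56 (SE 0.611, adjusted p = 0.183). *Idi1* was at 56.1, 37.4, and 14.3 CPM in controls and from 61 to 175 (median 106) in *Lmna* ADKO mice. *Ggps1* again was level, with a log2 fold change of about 0 (SE 0.154, adjusted p = 1.0).

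Of the later enzymes, 4 passed. *Dhcr7* rose by 1.56 (SE 0.365, adjusted p = 0.017), from 33.0, 22.9, and 13.4 CPM in controls to between 42.5 and 98.3 (median 64.5). *Lss* rose by 1.17 (SE 0.226, adjusted p = 0.00317), from 20.6, 16.6, and 17.9 CPM to between 32.5 and 59.7 (median 40.0). *Hsd17b7* and *Sc5d* rose by 1.05 (SE 0.277, adjusted p = 0.0316) and 0.77 (SE 0.194, adjusted p = 0.0197). *Hsd17b7* overlapped in 1 of 8 libraries, and *Sc5d* lay above controls in all 8.

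*Sqle*, *Cyp51*, *Msmo1*, and *Nsdhl* also lay above the 3 controls in all 8 libraries without passing. Their log2 fold changes were 2.04 (SE 0.631), 1.38 (SE 0.498), 1.46 (SE 0.484), and 1.52 (SE 0.454), with adjusted p of 0.076, 0.136, 0.101, and 0.0657. Control library 1 was their highest control and library 3 their lowest, for *Sqle* at 17.1 and 4.77 CPM. *Ebp*, *Tm7sf2*, *Lbr*, and *Fdft1* had log2 fold changes of -0.25 (SE 0.183), 0.09 (SE 0.354), 0.12 (SE 0.144), and 0.53 (SE 0.23), with adjusted p of 0.522, 0.934, 0.722, and 0.23. *Ebp* thus had no called difference between genotypes with FGF21.

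*Insig1* and *Insig2* were higher with FGF21 as well. *Insig2* was at 98.2, 87.1, and 51.3 CPM in controls and from 175 to 293 (median 229) in *Lmna* ADKO mice, a log2 fold change of 1.58 (SE 0.283, adjusted p = 0.00202). *Insig1* was at 76.0, 107, and 44.5 CPM and from 131 to 261 (median 210), a log2 fold change of 1.42 (SE 0.328, adjusted p = 0.014). Neither overlapped between genotypes. *Scap*, at 120, 113, and 85.9 CPM in controls and 70.3 to 115 (median 91.6) in *Lmna* ADKO mice, had a log2 fold change of -0.21 (SE 0.129, adjusted p = 0.423). *Srebf2*, *Stard4*, and *Tmem97* had log2 fold changes of 0.29 (SE 0.16), 0.59 (SE 0.233), and 0.38 (SE 0.148), with adjusted p of 0.38, 0.177, and 0.173.

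These calls leaned on the 3 controls. Without library 3 of the controls, 5 members were called, and without library 2, 6. Without the 3 libraries whose relative levels fell with gene length, 5 remained, *Acat2*, *Hmgcs1*, *Mvd*, *Lss*, and *Insig2*. No single library set the direction, with an enzyme median of 1.07 to 1.31 when each was left out. Each of these fits kept other controls, so they cannot show whether the direction depends on the 3 controls together. Within the 4-digit animal numbers, 4 *Lmna* ADKO mice against 3 controls, 7 members were called. With vehicle, only 1 control had a 4-digit number, so no such comparison was made there, and with the number series as a covariate 7 members were called higher.

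The treatment comparison asks what FGF21 altered within a genotype. In controls, 0 of 27 members were called in either direction, against 0.0542% of all genes, with 0 members at an unadjusted p under 0.05 by edgeR and by DESeq2, against 6.16% of all genes by edgeR. The enzyme median was -0.05, and -0.25 to 0.14 when each library was left out, the lowest without library 1 of the treated controls and the highest without library 5 of the untreated ones. The log2 fold changes of the 20 enzymes ran from -0.36 (*Sc5d*, SE 0.192, adjusted p = 0.771) to 0.17 (*Lbr*, SE 0.145, adjusted p = 0.797). The regulators gave -0.49 for *Insig1* (SE 0.316), -0.47 for *Insig2* (SE 0.269), -0.25 for *Scap* (SE 0.134), and -0.07 for *Srebf2* (SE 0.161), with adjusted p of 0.786, 0.771, 0.771, and 0.938. With SE of this size, differences of this order were not detectable with 3 treated controls. The number series also differed between these groups. Animal numbers had 3 digits in 6 vehicle-treated controls and 4 digits in 1, and 4 digits in all 3 treated controls. Treatment and number series are therefore hard to tell apart here. With the series as a covariate, all 27 members stayed uncalled.

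In *Lmna* ADKO mice given FGF21, 0 of 27 members were called, against 0.0% of all genes, as 0 genes passed in the whole comparison. DESeq2 called 0 members too. By either tool, 4 members had an unadjusted p under 0.05, against 6.71% of all genes by edgeR. They were *Mvk* (log2 fold change 0.39, SE 0.18), *Tm7sf2* (0.69, SE 0.286), *Lbr* (0.27, SE 0.114), and *Ebp* (0.45, SE 0.149), with adjusted p of 0.704, 0.704, 0.704, and 0.66. *Ebp* was at 128 to 208 CPM with vehicle (median 157) and at 244, 272, 116, 221, 199, 232, 259, and 211 CPM with FGF21, where 6 of 8 libraries exceeded all 6 with vehicle. The enzyme median was 0.37 on the log2 scale, with a range of 0.24 (without library 6 of the vehicle group) to 0.53 over libraries left out, and 18 of 20 enzymes had a log2 fold change above 0. *Hmgcs1* (-0.06, SE 0.25), *Sc5d* (-0.01, SE 0.148), *Insig1* (-0.03, SE 0.24), and *Insig2* (-0.10, SE 0.205) lay slightly under 0.

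**Figure D5:**
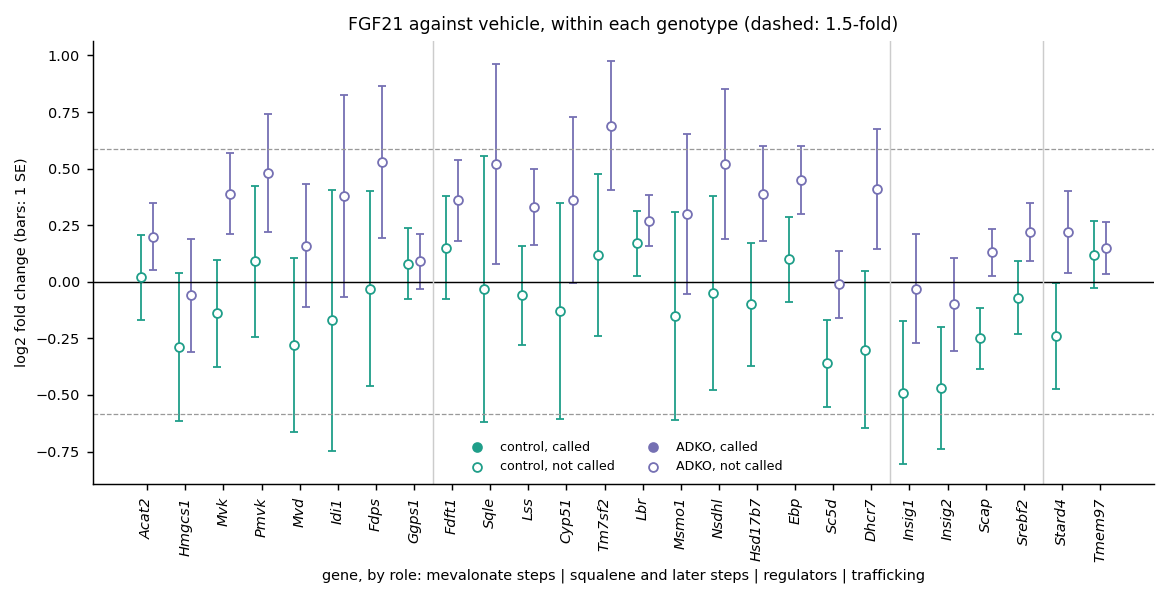
Log2 fold change of FGF21 against vehicle for 26 members, in controls (green) and in *Lmna* ADKO mice (purple). Bars are 1 SE, open points were not called, and dashed lines mark a 1.5-fold change. No point is filled, and the values run from -0.49 (*Insig1*, controls) to 0.69 (*Tm7sf2*, *Lmna* ADKO mice).

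Whether the genotype difference depended on treatment was tested as an interaction. Of the 27 members 0 were called, against 0.00417% of all genes, and DESeq2 also called 0. By either tool, 1 of 27 members had an unadjusted p under 0.05, against 4.86% of all genes by edgeR. It was *Scap*, with an interaction of 0.37 (log2, SE 0.17, adjusted p = 0.984). The interaction was 0.72 for *Dhcr7* (SE 0.439, adjusted p = 0.993), 0.54 for *Mvk* (SE 0.298, adjusted p = 0.984), and 0.35 for *Ebp* (SE 0.242, adjusted p = 0.995). The enzyme median was 0.45. It ran from 0.24 to 0.60 when each library was left out, with 0.24 without library 5 of the vehicle-treated controls and 0.28 without library 3 of the FGF21-treated controls. The genes share the same libraries, so their common sign is not a count of separate results.

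Other genes of sterol handling were read from lists. Calls in every list below stand beside the shares of all genes called. With vehicle these were 5.12% higher and 3.36% lower, and with FGF21 1.61% and 1.26%. A single call with vehicle in so short a list is near these shares. Of 9 genes that carry or cleave SREBP, 1 was higher with vehicle. *Sec24d*, a coat protein of vesicles that leave the endoplasmic reticulum, rose by 0.93 (SE 0.142, adjusted p = 3.68e-05) with vehicle and by 0.97 (SE 0.183, adjusted p = 0.00242) with FGF21, from 35.8 to 56.5 CPM in vehicle-treated controls to 70.3 to 102 in *Lmna* ADKO mice. Of 9 genes of sterol-regulated protein degradation and 8 genes of LXR receptors and their targets, 0 were called in either comparison. With vehicle 3 of each had an unadjusted p under 0.05, where 27% of all genes did, and with FGF21 0 and 2 had one, where 16.9% of all genes did. Of 12 genes of the nonsterol isoprenoid branch, 1 was higher with vehicle, *Pdss1* of coenzyme Q synthesis (0.70, SE 0.163, adjusted p = 0.00331), and 0 with FGF21. At an unadjusted p under 0.05 were 7 of the 12 with vehicle, against 27% of all genes, and 3 with FGF21. Their median log2 fold change with vehicle was 0.19.

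Of 4 other SREBP2-responsive genes, 2 were higher in both comparisons. *Acss2*, which makes acetyl-CoA from acetate, rose by 0.83 (SE 0.244, adjusted p = 0.0222) with vehicle and 1.49 (SE 0.324, adjusted p = 0.00981) with FGF21, and *Rdh11* rose by 0.83 (SE 0.249, adjusted p = 0.0252) and 1.25 (SE 0.326, adjusted p = 0.0297). Of 15 genes of sterol storage and transport, 1 was higher and 3 were lower with vehicle. *Lipa*, the lysosomal cholesteryl ester hydrolase, rose by 0.74 (SE 0.121, adjusted p = 9.22e-05), while *Lcat*, which esterifies plasma cholesterol, fell by 0.90 (SE 0.164, adjusted p = 0.000293) and the receptor *Lrp1* fell by 0.72 (SE 0.125, adjusted p = 0.000165). With FGF21, 1 was higher (*Lipa*, 0.74, SE 0.154, adjusted p = 0.00529) and 1 lower (*Lcat*, -0.82, SE 0.189, adjusted p = 0.0117).

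Genes of fatty acid synthesis, which SREBP1 governs, also moved with genotype. Of 11 genes, 4 were higher and 1 was lower with vehicle, and 1 was higher and 1 lower with FGF21. In both comparisons, 10 of 11 had a log2 fold change above 0. Their median was 0.89 with vehicle, beside 0.81 for the 20 sterol enzymes. With FGF21 it was 0.75, beside 1.14 for the sterol enzymes. *Scd1*, the stearoyl-CoA desaturase, ran from 65.1 to 1895 CPM in vehicle-treated controls (median 898) and from 3421 to 8472 (median 7260) in *Lmna* ADKO mice. It rose by 3.00 (SE 0.561, adjusted p = 0.000871) with vehicle and by 4.16 (SE 0.84, adjusted p = 0.00673) with FGF21. *Me1*, which supplies NADPH, rose by 0.89 (SE 0.182, adjusted p = 0.00116) with vehicle. *Mlxipl*, which encodes the glucose-responsive factor ChREBP, fell by 0.95 (SE 0.13, adjusted p = 8.99e-06) and by 0.60 (SE 0.151, adjusted p = 0.0202). FGF21 against vehicle gave 0 calls in all 7 lists in both genotypes. At an unadjusted p under 0.05 there was 1 gene in controls, among the LXR genes, and in *Lmna* ADKO mice 1 of the isoprenoid branch, 2 SREBP2-responsive genes, and 3 of sterol storage.

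Some markers of cell types also moved with genotype. Of all genes, 5.12% were called higher and 3.36% lower with vehicle, and 1.61% and 1.26% with FGF21. Hepatocyte markers summed to 84980 to 145112 CPM in vehicle-treated controls and 71792 to 107753 in *Lmna* ADKO mice, with 2 of 7 lower, led by *Serpina1a* (-0.95, adjusted p = 9.81e-05). Cholangiocyte markers summed to 27.1 to 51.2 and 85.8 to 196 CPM (2 of 6 higher), and stellate cell and fibroblast markers to 188 to 302 and 278 to 450 (4 of 7 higher). Macrophage markers summed to 418 to 612 and 257 to 473 CPM (0 of 7 called, 3 at an unadjusted p under 0.05, a level that 27% of all genes reached), and lymphocyte markers to 5.41 to 11 and 3.66 to 9.54 (0 of 6 called, 2 at an unadjusted p under 0.05). Endothelial markers summed to 217 to 273 and 207 to 262 CPM (1 of 6 higher, *Lyve1*), and adipocyte markers to 2.95 to 11.4 and 2.48 to 4.01 (1 of 6 lower, *Adrb3*). Pancreatic acinar markers summed to 6.56 to 19.6 and 5.86 to 9.14 CPM (1 of 4 lower, *Cela1*), with *Pnlip*, *Amy2a5*, and *Ctrb1* at or under 3 reads in every library. Enterocyte markers summed to 196 to 1188 and 2571 to 10915 CPM (2 of 4 higher, led by *Apoa4*, which liver also makes). With FGF21 the cholangiocyte sums were 32.3 to 38.5 CPM in controls and 50.4 to 242 in *Lmna* ADKO mice. Of these 6 markers, 0 were called and 2 had an unadjusted p under 0.05, a level that 16.9% of all genes reached with FGF21. The hepatocyte sums were 114648 to 129421 and 71170 to 146013 (1 of 7 lower). Stellate cell and fibroblast sums were 217 to 235 and 235 to 513 CPM there, with 0 of 7 called and 6 at an unadjusted p under 0.05. Adipocyte sums were 3.49 to 7.13 and 1.85 to 3.27 CPM, with 1 of 6 lower (*Adrb3*) and 5 at an unadjusted p under 0.05. Enterocyte sums were 251 to 425 and 1161 to 10928 CPM (1 of 4 higher). Macrophage sums were 402 to 708 and 293 to 631 (0 of 7 called), and endothelial sums 272 to 288 and 211 to 277 (1 of 6 higher). Lymphocyte sums were 6.49 to 12 and 5.1 to 14.5 (0 of 6 called), and pancreatic acinar sums 8.94 to 10.9 and 5.9 to 13.3 CPM (0 of 4 called). The part of these shifts in the sterol gene values was not tested.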

How the data were processed

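Liver RNA of 24 female mice was measured by polyA-selected, strand-specific RNA-Seq. The authors deposited whole-number read counts per gene, without normalization, and removed genes with no reads. The submitters' processing notes name cutadapt 4.8, FastQC 0.11.8, STAR 2.7.8a, RSEM 1.3.3, and GRCm38, with no roles, and the strand setting used in counting is not given in the sources used here. The sources name different sequencing providers.

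The quasi-likelihood test of edgeR 4.0.16 (R 4.3.3, robust fitting) was run on the 23972 genes after TMM scaling, in 1 fit of 4 groups with no covariate. SE is the absolute log2 fold change over the square root of F. Log2 CPM used a prior count of 2. Replicates are separate mice. Exonic lengths came from GENCODE M21, and promoter sequences from RefSeq on GRCm38.p6. The tests were first run on simulated data.

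The members and lists were chosen with earlier results of these data known. All members were named, and from each other list up to 3 called genes with the smallest adjusted p. Alternatives were DESeq2 1.42.0, other scaling, filters, samples and covariates, and leaving out each library.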

Additional observations from a re-analysis of the deposited data

Results flagged for a closer look

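Within groups of 4 to 10 libraries, the gap between an extreme library and its nearest neighbour was compared with Dixon's 95% critical value for each member. Of 81 gene and group pairs tested, 2 exceeded it, whereas chance flags about 1 in 20. *Ebp* in library 3 of the FGF21-treated *Lmna* ADKO mice was at 116 CPM, with the other 7 libraries from 199 to 272. *Stard4* in library 6 of the vehicle-treated *Lmna* ADKO mice was at 31.4 CPM, with the other 5 from 54.3 to 74.6. The latter library was also the lowest of its group for 18 of 20 enzymes.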

How the results depend on the processing

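No member changed sign while called under any alternative. With vehicle, *Acat2*, *Hmgcs1*, *Mvd*, *Fdps*, *Lss*, *Insig1*, and *Insig2* were called in all 21 alternatives, and with FGF21, *Acat2*, *Mvd*, *Lss*, and *Insig2* in all 20. The number of members called higher between genotypes with FGF21 (11) was 17 by DESeq2, whether 4 groups or 2 were fitted. It was 7 within 4-digit animal numbers, and 5 without the 3 libraries whose relative levels fell with gene length. With vehicle, the members called in either direction (11) numbered 15 by DESeq2 on all 4 groups. The number called lower with vehicle (1) was 2 by DESeq2 on all groups, with DESeq2's size factors, with low counts filtered, and by adjusted p alone, where *Scap* joined *Ebp*. Leaving out 1 library at a time gave 8 to 16 members higher and 0 to 2 lower with vehicle, and 5 to 11 higher with FGF21. It gave 0 lower without *Lmna* ADKO library 2, and 2 without *Lmna* ADKO library 4 or control library 1 or 7. The causes were not tested, except that fewer libraries entered these fits. No paired analysis was possible because no animal number is shared between groups. *Npc1l1* could not be judged at this depth.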
